A study of Gasterosteus aculeatus with 36 samples.

Results

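A set of 211 genes was far lower in stickleback embryos and at hatching than in larvae at 4 and 8 days post hatching (dph). The rule asks for a ratio and not for a low level, so some members, such as *col10a1a* and *amy2a*, already had many reads before 4 dph. The set was chosen on the normalized read counts themselves: of the 24388 genes in the normalized table, 211 had means of at least 50 at both 4 dph and 8 dph, and both means were at least 8 times the mean of each of stage 17, stage 20, stage 23 and 0 dph. The 8-fold step between larvae and earlier fish is therefore how the genes were picked and not a finding, and it is described here without a test. Of the 211, 82 carry a symbol and 129 carry only a LOC identifier; 10 of these LOC genes have gained a symbol in the RefSeq gene table of a newer assembly (fGasAcu3.hap1.1), and 7 others have a name in the study's supplementary gene lists.

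The fish were 36 whole threespine stickleback (*Gasterosteus aculeatus*) embryos and larvae, with 3 males and 3 females at each of 6 stages: stage 17 (early somite formation), stage 20 (first pigment), stage 23 (circulation over the yolk sac complete), 0 dph (hatching), 4 dph and 8 dph. They were untreated fish bred and raised in the laboratory, and fry were offered brine shrimp after hatching. Whether a given fish had eaten was not recorded, so the genes are called larval here, and feeding is a fact of rearing rather than a measurement. Poly(A) RNA of each fish was sequenced once, and between 8637205 and 52089185 reads were counted per fish. A normalized read count is the number of reads on a gene divided by a size factor of the library. Because whole animals were sequenced, more cells of a type and more RNA per cell cannot be told apart, and levels were compared between fish for 1 gene but not between genes, as transcript lengths were not used.

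Around hatching, a stickleback changes from living on yolk to digesting prey. The acinar cells of the pancreas secrete proteases, amylase and phospholipase into the gut lumen, where enteropeptidase starts the activation of the protease precursors, and enterocytes then take up peptides, lipids, phosphate and vitamins through transporters of the brush border. Goblet cells cover the gut and skin with gel-forming mucins. In the same days of fish development, cartilage is replaced by or sheathed in bone, teeth mineralize, rods join the cones of the retina, and glia wrap axons in myelin.

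Reads on the 211 genes were a very small share of the counted reads of a fish until hatching. The share ran from 0.00982% to 0.0157% at stage 17 (median 0.0129%, 6 fish here and at each later stage) and from 0.00926% to 0.0127% at stage 20 (median 0.0100%). It ran from 0.0211% to 0.0280% at stage 23 (median 0.0247%) and from 0.0595% to 0.0944% in fish just hatched (median 0.0786%). In larvae of 4 dph it was 1.73% to 2.48% (median 2.0%), and in those of 8 dph 2.47% to 3.58% (median 3.05%). Every larva lay above every earlier fish, which the selection favours, while the fish at 8 dph and 4 dph overlapped only at the edge. The 10 genes with the most reads held 41.6% of the normalized read counts of the set in larvae. The median over the 211 genes of the smaller larval mean divided by the highest earlier mean was 18.6, and the highest was 2533. For 202 of the 211 genes, each of the 12 larvae had more normalized read counts than each of the 24 earlier fish. The selection favours this too, and the same count was not made over all genes. Of the 9 exceptions, 8 had only a LOC identifier.

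**Figure D1:**
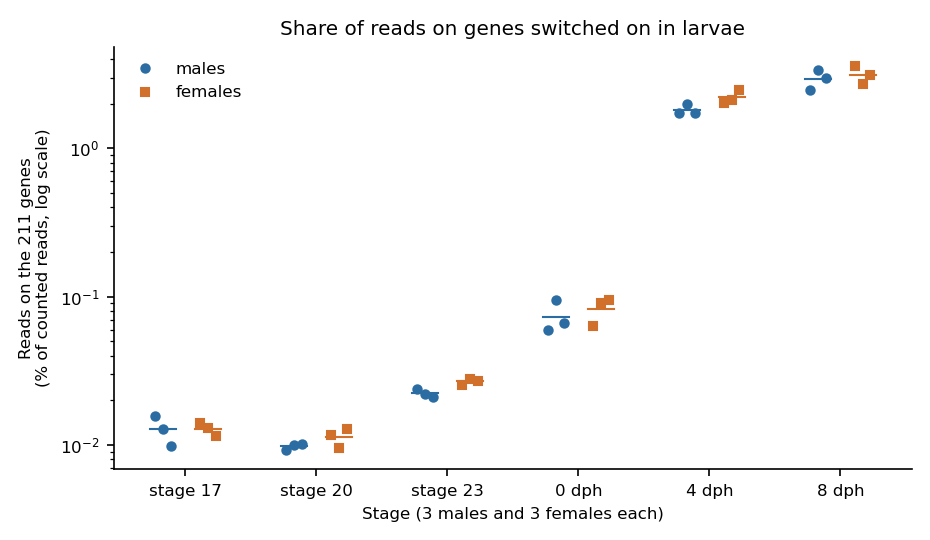
Share of counted reads on the 211 genes in each fish (percent, log scale) by stage; points are single fish, blue circles males and orange squares females, and bars are means of 3 fish. All fish up to 0 dph lie under 0.1%, and all larvae lie above 1.7%.

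Just inside the edge of the set were *LOC120820745* (ratio 8.06), *LOC120827565* (8.11), *LOC120830503* (8.14) and *zanl*, a zonadhesin-like gene (8.14). Just outside were *cnga1b* (7.86), which encodes a subunit of the rod cyclic nucleotide-gated channel, *rom1a* (7.83), which encodes a protein of photoreceptor discs, *LOC120827627* (7.82) and *LOC120818861* (7.80). With a ratio of 4 in place of 8 the set would hold 421 genes, and with a ratio of 16 it would hold 122.

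For 175 of the 211 genes, 0 dph was the highest of the 4 earlier stages, against 12 with their peak at stage 17, 16 at stage 20 and 8 at stage 23. *amy2a*, which encodes pancreatic alpha-amylase, was the clearest case of an early peak. It had 739 to 1599 normalized read counts (median 1053) at stage 17, 138 to 244 (median 218) at stage 20, and 44.7 to 152 (median 67.5) at stage 23. It had 30.5 to 78.3 (median 53.2) in fish just hatched, 6388 to 18578 (median 8941) in larvae of 4 dph and 7923 to 19912 (median 15731) in larvae of 8 dph. The gene was thus lowest at hatching, and its stage 17 level set its ratio of 9.21. *chs1*, a chitin synthase gene, also peaked early, with a stage 17 mean of 137, while fish just hatched averaged 62.1, larvae of 4 dph 1165 and larvae of 8 dph 1387.

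The 0 dph and stage 23 fish were then compared. The selection caps both means in the same way and fixes no direction between them, but it limits how far 0 dph can rise. The shares over all genes tested come from genes that were not held low at these stages. By edgeR's quasi-likelihood test with Benjamini-Hochberg adjustment over 22168 genes, 143 of the 211 (67.8%) were higher at 0 dph than at stage 23, against 33.7% of all genes tested, and 1 was lower, against 24.7%. The median log2 fold change was 1.78 over the 211 genes and 0.08 over all genes tested. Rod and muscle genes stood high in this comparison. *rom1b*, a disc protein gene of photoreceptors, had 18.6 to 141 (median 111) normalized read counts at 0 dph, against 0.851 to 3.44 (median 1.89) at stage 23 (log2 fold change 5.44, adjusted p = 2.21e-12). *ampd1*, which encodes the AMP deaminase of skeletal muscle, had 59.7 to 239 (median 181) at 0 dph, against 1.85 to 9.30 (median 5.50) at stage 23 (5.01, adjusted p = 5.36e-12). In both genes all 6 fish at 0 dph lay above all 6 at stage 23. The 5 members with the greatest differences had log2 fold changes between 5.78 and 6.79 and were all without a name. The foremost, *LOC120828730*, had no more than 1.33 normalized read counts in any fish at stage 23, as had *LOC120809652* and *LOC120816465*. *LOC120821921* had at most 1 read in any fish of that stage. The sizes of these fitted changes therefore depend on how low counts are treated. *LOC120809652* also had 20.3 to 138 (median 56.8) at stage 17, against 2.39 to 81.4 (median 27.4) at 0 dph.

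Of the 8 genes for pancreatic enzymes, by contrast, only *ela2* and *ela3l* were called higher at 0 dph than at stage 23. *cpb1*, a carboxypeptidase B gene, had 8.95 to 17 normalized read counts (median 12.9) at 0 dph, against 5.54 to 10.6 (median 8.12) at stage 23 (log2 fold change 0.63, adjusted p = 0.18). *LOC120811009*, now named *fcgbp* for a mucus-associated IgG Fc-binding protein, was the single member called lower, with 4.82 to 18.3 (median 8.14) at 0 dph, against 3.86 to 32.2 (median 24.6) at stage 23 (log2 fold change -1.0, adjusted p = 0.025). Its fish overlapped, and the call was lost without 0 dph female 1, 0 dph male 2, 0 dph male 3 or stage 23 female 3, each of which left 0 members called lower.

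The comparison of 8 dph with 4 dph asked how the set went on changing after it had been switched on. The rule puts the same lower limits on both means and fixes no direction between them, while genes at large carry no such limits. At 8 dph, 87 of the 211 genes (41.2%) were higher than at 4 dph, against 8.44% of all genes tested, and 11 (5.21%) were lower, against 9.47%. The median log2 fold change was 0.50 over the 211 genes and -0.00 over all genes tested. All 6 fish at 8 dph lay above all 6 at 4 dph in 51 of the 211 genes, against 5.31% of all genes tested, and below them in 7, against 4.35%. Without the fish of every group that bear replicate number 2 the counts were 52 higher and 6 lower, and without those numbered 3 they were 62 and 2; without 4 dph female 3 alone, 7 were lower.

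Roles were assigned after the values had been seen, to 65 members with a known function. The counts by role are descriptions, and differences between roles were not tested. At 8 dph, 7 of 8 pancreatic enzyme genes were higher than at 4 dph, 6 of 9 genes of mucus and defence, 6 of 10 of skeleton and connective tissue, 6 of 7 of rods and myelin, 3 of 8 of liver and plasma and 2 of 4 of muscle, and none of these groups held a gene that was lower. Of 19 genes of gut absorption, 5 were lower at 8 dph, 1 was higher and 13 were not called. Of 145 members without a role, most of them unnamed, 56 were higher and 6 lower, and *LOC120824570*, which stood alone in its role, was not called.

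**Figure D2:**
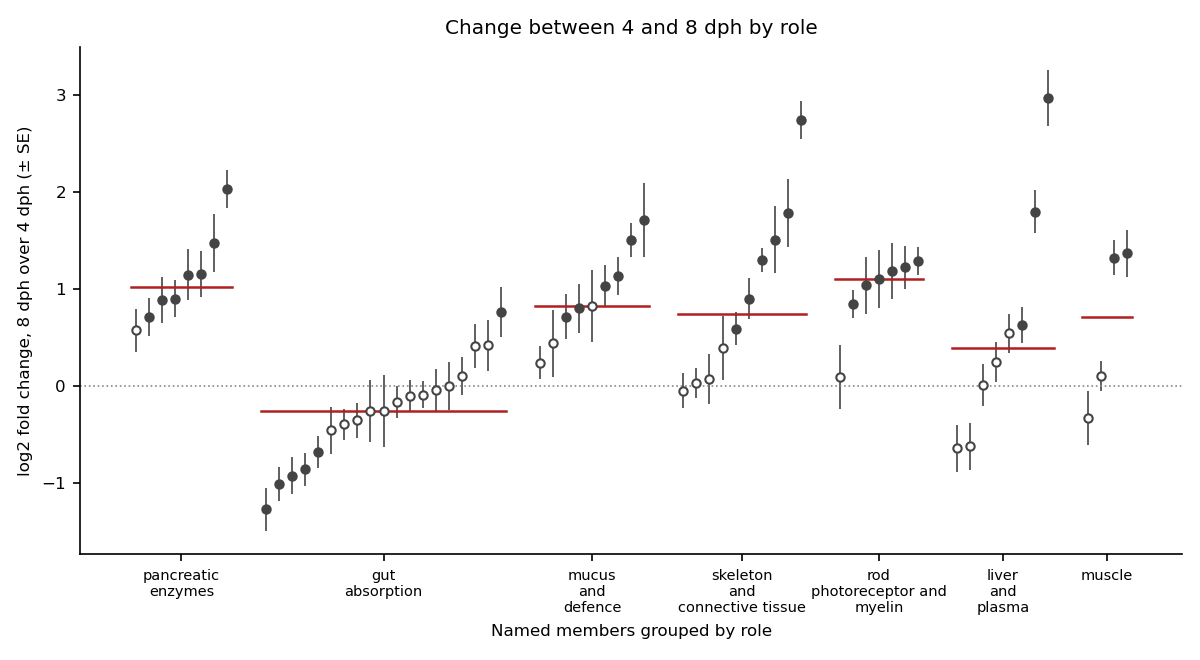
Log2 fold change of 8 dph over 4 dph for the members given a role, with its standard error from the fit over all 36 fish. Filled points passed the test across all genes, open points did not, and red bars are group medians. Pancreatic, rod and myelin genes lie mostly above 0 with medians of 1.02 and 1.11, while gut absorption genes have a median of -0.26.

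The pancreatic genes encode 3 carboxypeptidases, 3 elastases, the amylase and a secreted phospholipase A2, and their ratios of larval to earlier levels were among the greatest of any role, with a median of 170. *cpb1* had 7151 to 15473 normalized read counts (median 10700) at 8 dph, against 1467 to 4581 (median 2514) at 4 dph. Every fish at 8 dph exceeded every fish at 4 dph, and the log2 fold change was 2.03 ± 0.20 (SE, adjusted p = 2.40e-08). *pla2g1b*, the phospholipase, had 948 to 1805 (median 1281) at 8 dph, against 102 to 1040 (median 415) at 4 dph (1.47 ± 0.30, adjusted p = 0.00119). A single 4 dph fish, female 3, reached into the range of the older larvae.

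*ela2l* had 21068 to 40221 normalized read counts (median 32368) at 8 dph, against 11169 to 21937 (median 13428) at 4 dph, and *ela2* had 14038 to 27193 (median 24325) at 8 dph, against 7846 to 15603 (median 9535) at 4 dph. Both elastase genes were higher at 8 dph (1.15 ± 0.26, adjusted p = 0.00261, and 1.15 ± 0.24, adjusted p = 0.00110). In both, 4 dph female 3 exceeded the lowest fish at 8 dph, male 1, and no other fish overlapped. The *ela2l* call was lost with DESeq2 (adjusted p = 0.126) and without the fish numbered 2 (adjusted p = 0.059). For *amy2a* the difference was 0.57 ± 0.23 on the log2 scale and missed the threshold (adjusted p = 0.077). The 4 dph female 3 had 18578 normalized read counts of *amy2a*, far above the other fish of that stage, and without that fish the difference was called (0.80, adjusted p = 0.014), as it was without 8 dph male 1 (0.70, adjusted p = 0.031).

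**Figure D3:**
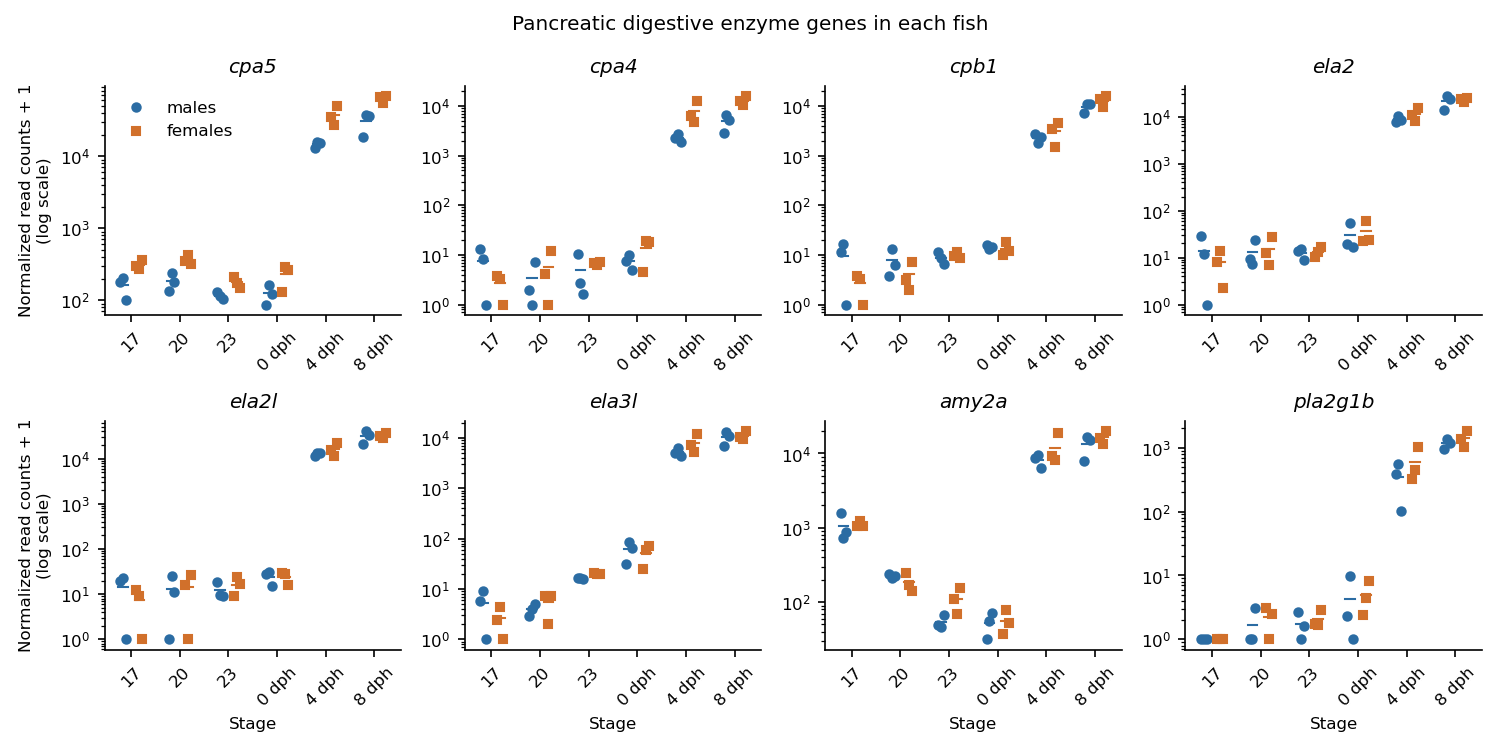
Normalized read counts plus 1 (log scale) of the 8 pancreatic enzyme genes in each fish by stage; blue circles are males, orange squares females, bars means of 3 fish. All 8 are far higher at 4 and 8 dph than at 0 dph, *amy2a* also has an early peak at stage 17, and males lie below females for *cpa4* and *cpa5* in larvae.

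Among the gut absorption genes of the set, 5 fell at 8 dph, and the cells that carried their reads were not measured. The wider list of brush border and absorption genes had 1 of its 24 genes higher, 2 lower and 21 not called. The 2 lower genes were the members *fabp2* and *slc15a1a*, so the list adds no further gene that fell. *fabp2*, the intestinal fatty acid-binding protein gene, had 2788 to 4042 normalized read counts (median 3463) at 8 dph, against 3772 to 7176 (median 5569) at 4 dph (log2 fold change -0.68 ± 0.16, adjusted p = 0.00386). *slc15a1a*, which encodes an intestinal peptide transporter, had 529 to 846 (median 781) at 8 dph, against 1069 to 1906 (median 1131) at 4 dph (-0.86 ± 0.17, adjusted p = 0.000663). For *slc15a1a* no fish of one stage reached the range of the other, and for *fabp2* the stages overlapped slightly.

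*aoc1*, the gene of a diamine oxidase, had 981 to 1327 normalized read counts (median 1048) at 8 dph, against 1836 to 2930 (median 2165) at 4 dph (-1.01 ± 0.18, adjusted p = 0.000174). *slc34a2a*, a sodium and phosphate cotransporter gene, had 190 to 387 (median 254) at 8 dph, against 418 to 644 (median 511) at 4 dph (-0.92 ± 0.19, adjusted p = 0.000860). *LOC120807779*, annotated as a membrane-associated phospholipase B1-like gene, had 224 to 353 (median 289) at 8 dph, against 419 to 1308 (median 662) at 4 dph (-1.27 ± 0.22, adjusted p = 0.000184). In these 3 genes all fish at 8 dph were below all fish at 4 dph. The calls of *aoc1*, *fabp2* and *LOC120807779* were lost when the fish numbered 3 were left out, and that of *fabp2* also without those numbered 2. *tmprss15*, the gene of enteropeptidase, had 464 to 657 (median 530) at 8 dph, against 476 to 1061 (median 730) at 4 dph, and the difference was not called (-0.46 ± 0.24, adjusted p = 0.198). The single gene assigned to this group that was higher at 8 dph was *lrp2b*, a gene of the endocytic receptor megalin. It had 381 to 765 (median 567) at 8 dph, against 254 to 537 (median 281) at 4 dph (0.76 ± 0.26, adjusted p = 0.039). Which organ its reads came from was not measured.

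The mucin genes *LOC120807852* and *muc2.1* of the set were higher at 8 dph. Over the wider list of innate antimicrobial and mucosal genes, 7 of 18 tested were higher, 1 lower and 10 not called. That list also holds mucin genes that were not members, *LOC120807845* and *LOC120832113*, and their own changes are not given here. *LOC120807852*, a mucin-5AC-like gene, had 1083 to 2318 normalized read counts (median 1523) at 8 dph, against 358 to 825 (median 594) at 4 dph (1.5 ± 0.18, adjusted p = 4.13e-07). *muc2.1*, which encodes a gel-forming mucin, had 70.7 to 601 (median 254) at 8 dph, against 35.0 to 116 (median 76.1) at 4 dph (1.71 ± 0.38, adjusted p = 0.00347). The stages did not overlap for the mucin-5AC-like gene and overlapped for *muc2.1*. Of the defence genes, *pglyrp6*, a peptidoglycan recognition protein gene, had 548 to 983 (median 809) at 8 dph, against 331 to 545 (median 499) at 4 dph (0.80 ± 0.25, adjusted p = 0.026).

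Among the skeletal genes, *bglapl*, related to the bone matrix protein osteocalcin, had 1794 to 2386 normalized read counts (median 1890) at 8 dph, against 147 to 441 (median 301) at 4 dph (2.74 ± 0.19, adjusted p = 6.51e-11). *spp1*, which encodes the bone matrix protein osteopontin, had 3682 to 6168 (median 4468) at 8 dph, against 1544 to 2275 (median 1968) at 4 dph (1.29 ± 0.12, adjusted p = 2.02e-08). The secretory calcium-binding phosphoprotein gene *scpp1* had 1388 to 1706 (median 1501) at 8 dph, against 369 to 531 (median 420) at 4 dph (1.78 ± 0.35, adjusted p = 0.000664). All 3 were higher in each 8 dph fish than in any 4 dph fish. *col10a1a*, a collagen X gene, had the most reads of all 211 genes in larvae, with 37610 to 52338 (median 45169) at 8 dph, against 37656 to 45237 (median 41702) at 4 dph. The stages covered the same range (0.07 ± 0.26, adjusted p = 0.885), and it had already reached 3950 to 5899 (median 4997) at 0 dph.

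Of the 7 rod and myelin genes, 6 were higher at 8 dph. The wider list of photoreceptor markers had a median log2 fold change of 0.16, with 9 of its 24 genes higher, 1 lower and 14 not called. *gnat1*, which encodes the rod transducin alpha subunit, had 5569 to 6718 normalized read counts (median 6066) at 8 dph, against 1936 to 4058 (median 2647) at 4 dph (1.11 ± 0.30, adjusted p = 0.00945). *mpz*, a myelin protein gene, had 1577 to 2070 (median 1681) at 8 dph, against 509 to 832 (median 714) at 4 dph (1.29 ± 0.15, adjusted p = 2.57e-07). *plp1b*, another myelin gene, had 3131 to 3978 (median 3602) at 8 dph, against 1482 to 2299 (median 2018) at 4 dph (0.85 ± 0.14, adjusted p = 9.93e-05). The stages did not overlap in any of the 3. *grk1b*, a rhodopsin kinase gene, was the member of the group that was not called (0.09 ± 0.33, adjusted p = 0.893). Whether rods or cones carried its reads was not measured.

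The greatest rise of any member at 8 dph was that of *shbg*, which encodes the plasma carrier of sex steroids. It had 450 to 1184 normalized read counts (median 820) at 8 dph, against 23.6 to 197 (median 97.7) at 4 dph (2.97 ± 0.29, adjusted p = 2.21e-08). *serping1*, the C1 inhibitor gene, had 602 to 1084 (median 758) at 8 dph, against 126 to 409 (median 214) at 4 dph (1.80 ± 0.23, adjusted p = 1.30e-06). Neither gene's stages overlapped. *LOC120816011*, now named *cyp7a1* for the enzyme that opens bile acid synthesis, had 365 to 1225 (median 745) at 8 dph, against 754 to 1674 (median 1192) at 4 dph, and was not called (-0.64 ± 0.24, adjusted p = 0.069). Of the muscle genes, *ampd1* had 7929 to 16249 (median 13976) at 8 dph, against 2934 to 7080 (median 4883) at 4 dph (1.37 ± 0.24, adjusted p = 0.000186), and *LOC120827565*, now named *cox6a2* for a cytochrome oxidase subunit of muscle, had 683 to 1276 (median 791) at 8 dph, against 289 to 386 (median 332) at 4 dph (1.32 ± 0.18, adjusted p = 8.00e-06).

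Unnamed genes filled much of the set. Of the 14 members with the most reads in larvae, 8 had no name; among them *LOC120828918* had 27138 to 33216 normalized read counts (median 28983) at 8 dph, against 10771 to 16428 (median 12984) at 4 dph (1.16 ± 0.36, adjusted p = 0.023), while *LOC120808702* had 27010 to 52521 (median 42902) at 8 dph, against 18270 to 35760 (median 20896) at 4 dph, and was not called (adjusted p = 0.104). *LOC120826963*, annotated as an elongation factor 1-alpha-like gene, had 18129 to 20244 (median 18977) at 8 dph, against 9922 to 14593 (median 12896) at 4 dph (0.57 ± 0.15, adjusted p = 0.00959). The call of *LOC120828918* was lost in 5 of 20 alternatives (without the fish numbered 2 or 3, without 4 dph female 3, without 4 dph male 1, and with DESeq2, where the adjusted p was 0.164). That of *LOC120826963* was lost without the fish numbered 2 (adjusted p = 0.112). Of the 8 members that rose most, 6 were unnamed, and *LOC120825673* had 3629 to 6318 (median 4622) at 8 dph, against 537 to 1602 (median 733) at 4 dph (2.55 ± 0.37, adjusted p = 1.29e-05).

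Most members did not lie next to another, but more did than among genes at large. Of 179 members placed on a chromosome among the protein-coding genes of fGasAcu3.hap1.1, 30 (16.8%) had another member as an immediate neighbour, while 1.52% of all 22837 placed protein-coding genes had a member next to them. There were 12 such runs, and 3 of them held 4 members each. One run joined *slc34a2a* and *bglapl* with *LOC120824570*, now named *erp27*, and *LOC120825881*, although *slc34a2a* fell and *bglapl* rose at 8 dph. The other runs of 4 held LOC genes only, including *LOC120810623*, *LOC120810624* and *LOC120810625*, and *LOC120816638* and *LOC120816639*. Where neighbours are near-identical copies, reads that map to both were not counted, so the split between such copies is uncertain.

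Marker lists of cell types and functions were also counted. Of 19 lists, 7 held at least 1 member and 12 held none, and the list counts stand beside 8.44% higher and 9.47% lower over all genes tested. All 6 pancreatic protease genes of the list were members and all 6 were higher at 8 than at 4 dph. The list of pancreatic lipid and starch enzymes held 3 genes, of which 2 were members and 1 was higher. Its remaining gene, *cpa6*, is by its symbol a carboxypeptidase gene and was neither a member nor called. The protease list leaves *cpa6* out, so its count does not cover every carboxypeptidase gene. Of 24 genes of brush border and absorption, 5 were members, 1 was higher and 2 were lower. Of 18 tested innate antimicrobial and mucosal genes, 5 were members, 7 were higher and 1 was lower. Of 10 bone and tooth genes, 4 were members, 5 were higher and 1 was lower. Of 24 photoreceptor genes, 2 were members, 9 were higher and 1 was lower. Of 10 myeloid leukocyte genes, 2 were members, 2 were higher and 1 was lower; the members were *lyz* and *cpa5*, which also stands in the protease list and is known from mast cells in zebrafish, and which cells carried its reads was not measured.

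In the counts here, *ghrl* stands in both the stomach and the peptide hormone list. The 12 lists without a member held 115 tested entries, of which 20 were higher and 11 lower at 8 than at 4 dph. They were those of lipoproteins (15 genes, 1 higher and 5 lower), liver plasma proteins (15 genes, 7 higher and 2 lower), stomach (2 genes, none called), lymphocytes (13 genes, 2 higher), lens (18 genes, 3 lower), skeletal muscle (12 genes, 4 higher), epidermis and keratin (5 genes, none called), erythrocytes (6 genes, 5 higher), xenobiotic and steroid metabolism (7 genes, 1 higher), gill ionocytes (6 genes, none called), neurons (8 genes, none called) and peptide hormones of gut and pancreas (8 genes, 1 lower).

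Males and females were compared next. At 4 dph 8 of the 211 genes (3.79%) were lower in males, against 3.04% of all genes tested, at 8 dph 6 (2.84%) were, against 3.14%, and over both stages together 9 (4.27%) were, against 3.59%. These shares were near the background. No member was called higher in males by edgeR, against 1.69% of all genes tested at 4 dph, 1.69% at 8 dph and 1.76% over both. With shares this small, the lack of such calls is not read as a trait of the set. An unadjusted p under 0.05 in either direction was found for 26, 19 and 28 members, a count not made over all genes tested. Of the 9 called over both stages, 6 were placed on the X chromosome by the RefSeq gene table of fGasAcu3.hap1.1. This assembly is other than the one the reads were aligned to. It placed on X 71 of 71 genes listed on chromosome 19, the X, in the study's supplementary tables. Of 2469 genes listed there on another chromosome, it placed 1 on X or Y. The 1 member placed on Y was not called higher in males. Stickleback males carry a single X and females a pair. Over the 7 members placed on X the median log2 fold change of males over females was -1.19, over 819 X-placed genes tested it was -0.96 with 81.1% called lower in males, and over the 203 members not placed on X or Y, those of unknown place included, it was -0.10.

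The X-placed members included 2 carboxypeptidase genes of the pancreatic group. *cpa4* had 2886, 6576 and 5268 normalized read counts in males at 8 dph, against 12270, 10195 and 15508 in females, and 2249, 2693 and 1901 in males at 4 dph, against 6198, 4763 and 12761 in females. *cpa5* had 18686, 37170 and 35886 in males at 8 dph, against 67380, 55353 and 67642 in females, and 12942, 15965 and 15067 in males at 4 dph, against 35369, 27549 and 49620 in females. No male reached the level of a female of its own stage in either gene. Over both stages the log2 fold change of males over females was -1.60 ± 0.24 for *cpa4* (adjusted p = 6.14e-06) and -1.22 ± 0.19 for *cpa5* (adjusted p = 1.49e-05). *cdhr5b*, a cadherin-related gene of the brush border that is also placed on X, had 378, 434 and 319 in males at 8 dph, against 747, 878 and 678 in females, and 304, 387 and 495 in males at 4 dph, against 770, 800 and 920 in females (-1.06 ± 0.16, adjusted p = 8.53e-06).

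The other X-placed members called over both stages were *LOC120809897* (-1.31 ± 0.20), *LOC120809713* (-1.04 ± 0.21) and *LOC120809531* (-1.19 ± 0.34). Of the members not placed on X or Y, *zgc:123278*, *tmed6* and *habp2* were called. *tmed6*, of a family of cargo receptors of the secretory pathway, had 54.4, 60.2 and 152 in males at 8 dph, against 396, 174 and 285 in females, and 62.4, 79.6 and 136 in males at 4 dph, against 187, 171 and 279 in females (-1.46 ± 0.35, adjusted p = 0.00426). *habp2*, which encodes a plasma serine protease and was named after its values were seen, had a smaller difference (-0.69 ± 0.21, adjusted p = 0.039). *tmed6* and *zgc:123278* were not found in the RefSeq table, so whether they lie on X was not determined here. The call of *tmed6* was lost without the fish numbered 1 (adjusted p = 0.154), and that of *zgc:123278* without those numbered 2 or 3.

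**Figure D4:**
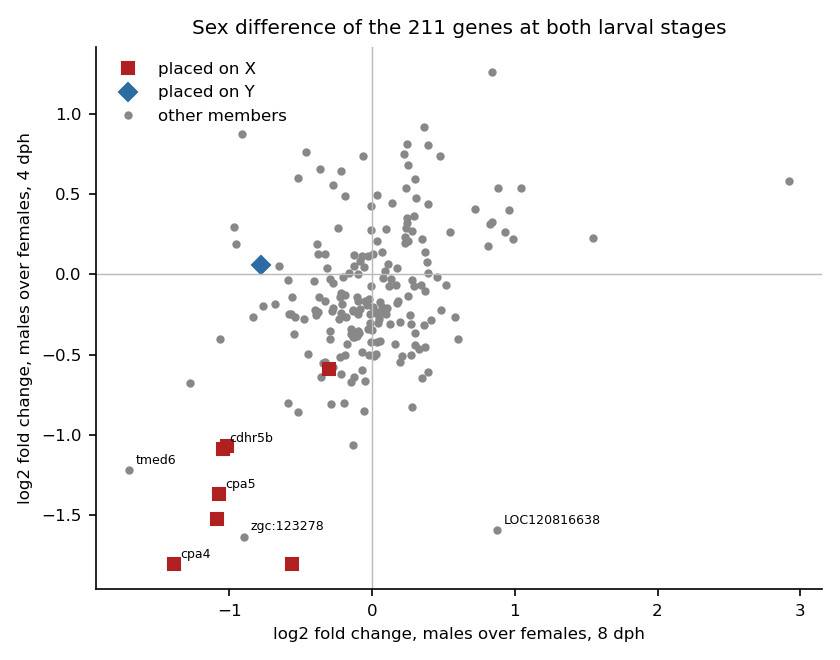
Log2 fold change of males over females at 8 dph (horizontal) and at 4 dph (vertical) for the 211 genes; red squares are the 7 placed on X, the blue diamond the 1 placed on Y, and grey points the others. *cpa4*, *cpa5* and *cdhr5b* lie below -1 on both axes, and *LOC120816638* lies below 0 at 4 dph and above 0 at 8 dph.

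The sum of the 6 pancreatic enzyme genes not placed on X was 58134, 109475 and 94623 normalized read counts in males at 8 dph, against 98307, 82894 and 113824 in females, and 35963, 42032 and 35337 in males at 4 dph, against 46597, 34358 and 73532 in females. The sexes overlapped in this sum at both stages. None of the 211 genes was called for a sex difference in the change between 4 and 8 dph by edgeR (background 0.0135%) or by DESeq2. An unadjusted p under 0.05, not counted over all genes tested, was found for 6. The foremost was *LOC120816638*, which had 10814, 26852 and 23564 in males at 8 dph, against 11409, 10255 and 11192 in females, and 3888, 8629 and 3690 in males at 4 dph, against 13652, 12375 and 22376 in females. Males were below females at 4 dph (log2 fold change -1.60, adjusted p = 0.00208), the 8 dph difference was not called (0.88, adjusted p = 0.263), and the test of the change between them gave 2.47 ± 0.49 with an adjusted p of 0.109.

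The counts of sex differences rested on single fish. Without 4 dph female 2 there were 17 calls at 4 dph (10 higher and 7 lower in males) and 21 over both stages (12 higher and 9 lower), of which 5 and 7 were also called with all fish. Without 4 dph female 3 or without 4 dph male 2 there were 5 calls at 4 dph. At 8 dph there were 3 calls without 8 dph female 3 and 2 without 8 dph male 1. The calls of *cpa4*, *cpa5* and *cdhr5b* over both stages were kept under each of the 20 alternatives tried.

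Larvae of the same stage differed more in these genes than in others. The median coefficient of variation over 6 fish was 24% at 8 dph and 28.5% at 4 dph for the 211 genes, against 11.4% and 12.6% for all 18387 genes with larval means of at least 50. The fish did not share this evenly: 4 dph female 3 was the highest of its stage in 79 of the 211 genes and 4 dph male 1 the lowest in 93, and at 8 dph male 2 was the highest in 67 and male 1 the lowest in 60. The same counts were not made over all genes. Whether these fish were as often extreme in other genes was therefore not determined. Counted reads were 23385945 in 4 dph female 3 and 18132137 in 4 dph male 1, and 28479530 and 25458635 in 8 dph males 2 and 1; the part of depth in this was not tested.

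The widest spread was in 9 genes whose highest fish exceeded the lowest at least 10-fold at both larval stages, after adding 1 to each value. They made up 4.27% of the set, against 1.2% of the genes with larval means of at least 50, and they were picked after the values had been seen. Of the 9, 7 varied together: *LOC120808852*, *LOC120809652*, *LOC120810035*, *LOC120819344*, *LOC120829883*, *LOC120833489* and *LOC120835533*. In *LOC120808852*, *LOC120809652*, *LOC120810035*, *LOC120829883* and *LOC120833489* the lowest larva did not exceed the highest earlier fish, so these genes were not high in every larva. The lowest larva had 25.8 normalized read counts of *LOC120809652*, against 138 in the highest earlier fish. Pearson correlations among the 7, of log2 values around the stage mean, ran from 0.87 to 0.99 over the 12 larvae. The genes share their libraries, and the 7 were picked for varying together, so the high range follows from the choice. *LOC120831080* and *LOC120824724* did not follow them, with correlations from -0.18 to 0.02 and from -0.58 to -0.41. Members of narrower spread also followed the mean of the 7, foremost *LOC120825926* (r = 0.85), *LOC120829845* (0.83), *LOC120835022* (0.81), *LOC120825966* (0.79) and *LOC120822673* (0.76), so the pattern was not limited to the 7. Others ran against that mean, among them *LOC120816011* (-0.645) and *LOC120830164* (-0.613).

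Summed over these 7 genes, males had 16834, 48214 and 17805 normalized read counts at 8 dph, against 37236, 3137 and 10966 in females. At 4 dph males had 31398, 25411 and 474, against 958, 52541 and 1956 in females. At 4 dph the fish thus fell into those with high levels (female 2, male 1 and male 2) and those with low levels (female 1, female 3 and male 3), and this division was the same in each of the 7 genes. *LOC120835533* had 12399, 10607 and 137 in males at 4 dph, against 210, 18737 and 608 in females, and 7325, 20834 and 7754 in males at 8 dph, against 8740, 753 and 2574 in females. At 8 dph levels were graded, with female 2 the lowest in each of the 7 genes. The division crossed the sexes, and leaving out the single high female at 4 dph turned 5 of the 7 into calls of a male excess at that stage. None of the 7 has a name in the files or in the RefSeq table, and no label records when a fish last ate, so what the high and low fish had in common was not tested.

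**Figure D5:**
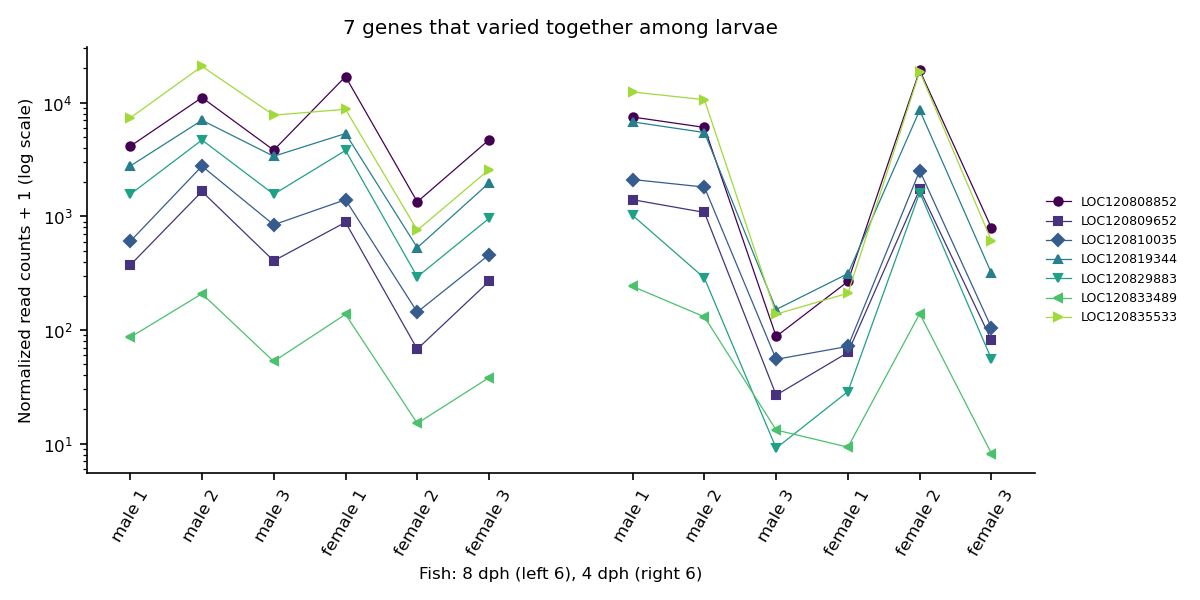
Normalized read counts plus 1 (log scale) of the 7 genes in each larva, the 8 dph fish in the left block and the 4 dph fish in the right block, males before females; lines join the fish of a stage for 1 gene. All 7 lines are low in 4 dph male 3, female 1 and female 3 and high in the other 4 dph fish.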

How the data were processed

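The authors trimmed reads with Trimmomatic 0.39, aligned them to GAculeatus_UGA_version5 with HISAT-3N, and counted uniquely mapped reads per annotated gene with HTSeq 2.0.2, strand reversed. They deposited these raw counts (25258 genes) and a table of normalized signal, the same counts divided by a DESeq2 1.44.0 size factor for each library, which leaves out genes with under 10 reads in all. The authors pooled the libraries for sequencing, and for each sample they added up the counts of paired and orphaned reads. Columns were matched to samples by the library names in the labels, and counts of different libraries were not merged here.

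The members were found on the stage means of the normalized signal (6 fish each). Counts were tested with edgeR 4.0.16 (R 4.3.3, limma 3.58.1): TMM, filterByExpr on the 12 groups, glmQLFit and glmQLFTest with a factor of stage and sex over all 36 fish, and Benjamini-Hochberg adjustment over the 22168 genes kept, among them all 211 members. A gene with an adjusted p under 0.05 was called. The SE of a log2 fold change is its absolute value divided by the square root of the F statistic of the test. It rests on a spread estimated over all 36 fish, embryos included, so it is not the spread of the compared fish alone. The code was tested on simulated counts. Sums over members carry no test. DESeq2 1.42.0, other size factors, no filter on low counts, fits on the compared stages alone, a replicate block, and each fish or replicate number left out were alternatives. Summaries used Python 3.11.15, numpy 2.4.6 and pandas 2.3.3.

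The members, the marker lists and the rule for named genes were chosen with earlier results of these data known. The rule took the 14 members with the most reads, the 8 largest calls each way between 8 and 4 dph, up to 8 called between the sexes, 4 on each side of the threshold, and the 5 largest at 0 dph over stage 23. Other genes were named for their role after their values were seen. The lists were matched by symbol, so LOC genes mostly escape them. Names came from the files, the study's supplementary gene lists and RefSeq (fGasAcu3.hap1.1, in which 181 members were found); since the assemblies differ, it served for names, chromosome and the order of neighbouring genes, and none of its coordinates is given. No genome sequence was used, so no sequence is shown.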

Additional observations from a re-analysis of the deposited data

Results flagged for a closer look

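In groups of 6 fish with normally spread values, chance alone sets the highest or lowest fish apart in about 1 in 20 groups. Such a fish was found in 10 of 110 groups examined. The groups mix the sexes and share fish, and *amy2a* is part of the pancreatic sum below. The count can therefore not be read as an excess over chance. At 4 dph, female 3 stood apart with 73532 normalized read counts summed over the pancreatic enzyme genes not placed on X (next fish 46597), with 18578 of *amy2a* (next 9595) and with 28718 of *LOC120811141* (next 17966). The highest 4 dph fish also stood apart with 1602 of *LOC120825673* (next 749), 1620 of *LOC120825766* (next 932) and 1308 of *LOC120807779* (next 693). At 8 dph the highest fish stood apart with 7155 summed over the liver and plasma genes (next 5851), 1488 of *LOC120830163* (next 1028) and 1276 of *LOC120827565* (next 799), and the lowest with 10695 of *LOC120835837* (next 19160).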

How the results depend on the processing

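The set held 421 genes with a ratio of 4, 122 with a ratio of 16, and 187 to 247 under the other limits and scalings; without 1 replicate number it held 209 to 223, of which 196 to 204 were among the 211. With fish left out, calls between 8 and 4 dph ranged from 58 to 98 (52 to 88 higher, 2 to 14 lower), those between 0 dph and stage 23 from 126 to 146 (125 to 146 higher, 0 to 2 lower), and those between the sexes from 3 to 17 at 4 dph, 2 to 6 at 8 dph and 7 to 21 over both, with 0 to 1 for the change between stages. Fitted on the compared stages alone, 115 members were called between 8 and 4 dph (95 higher, 20 lower), against 98 (87 and 11) in the main fit. Between 0 dph and stage 23, 119 were called (119 higher, 0 lower), against 144 (143 and 1) in the main fit. The cause of these shifts was not tested. Of 24 calls between 8 and 4 dph in genes picked by the rule for named genes, 9 were made under every alternative run. Genes named for their role, such as *cpb1*, *lrp2b* and *pglyrp6*, are not among the 24, and how stable their calls were is not given. The sign of *LOC120829845*, which was never called, turned in 7 alternatives (-0.39 to 0.76 without single fish or numbers). Replicate numbers were not taken as pairs. The deviations of same-numbered males and females correlated at -0.07 to 0.14 in the 6 larval pairs and over 0.1 in 7 of 18 pairs in all. Among these were all 3 pairs at 0 dph (0.487, 0.277 and 0.245). The sexes were not compared at 0 dph, but the comparison with stage 23 took these fish as independent. With 1 effect per replicate number shared by all stages, 101 members were called between 8 and 4 dph and 145 between 0 dph and stage 23. Such an effect cannot take up a likeness of same-numbered fish that is particular to 1 stage. With a block of stage and replicate number, 10, 9 and 11 members were called between the sexes. Depth limits the earlier stages most, where the median member had 2.74 to 17.7 normalized read counts.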
